A study of Mus musculus with 8 samples.

Results

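The App family and the membrane-bound proteases that cut its proteins outside the membrane comprise 7 genes here: the substrates App, Aplp1 and Aplp2, the beta-secretases Bace1 and Bace2, and the alpha-secretases Adam10 and Adam17. They were taken by gene symbol from the 30211 features of single-nucleus RNA-seq libraries of mouse hippocampus, and every member was present as 1 row. There were 8 libraries, each from 1 mouse on a C57BL/6N background. WT mice (n = 3) and GKO mice (n = 3) were 7 months old. GKO mice were GSAP -/-: gamma-secretase activating protein had lost some floxed exons in every tissue through CMV-Cre. The J20;WT mouse (n = 1) and the J20;GKO mouse (n = 1) were 6 months old and carried the J20 transgene, human APP with the Swedish and Indiana mutations under the PDGFB promoter. The study compared GKO with WT mice, with and without J20, to ask what loss of GSAP changes in each cell type. J20 and non-J20 mice are set side by side here in addition.

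App is a membrane protein whose large outer part is shed by either of 2 kinds of protease. Beta-secretase cuts at the start of the amyloid-beta stretch, and the stub that stays in the membrane is then cut by gamma-secretase to release amyloid-beta. Alpha-secretase cuts inside that stretch, so that no amyloid-beta forms from that molecule. Aplp1 and Aplp2 are shed by the same proteases but lack the amyloid-beta sequence. In brain, Bace1 is the main beta-secretase and Adam10 the main alpha-secretase of neurons, whereas Adam17 is best known for releasing tumour necrosis factor from immune cells.

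The stretch of App between the beta and the alpha cut is shown because it is where Bace1 and the ADAM proteases act on the same protein. In GENCODE annotation of GRCm38, it lay within exon 14 of the 16 exons of App-201, on the minus strand at chr16:84965670-84965726, and held 19 codons. The capitals at the left mark the 2 codons just before the beta cut, which the Swedish mutation of the transgene replaces, and the capitals at the right mark the codons on both sides of the alpha cut.
App beta to alpha: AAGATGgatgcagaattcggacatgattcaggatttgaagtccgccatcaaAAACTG

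On GRCm38, the substrates were located on chromosome 16 for App (ENSMUSG00000022892, 84949685 to 85173766, minus strand), chromosome 7 for Aplp1 (ENSMUSG00000006651, 30434982 to 30445535, minus strand) and chromosome 9 for Aplp2 (ENSMUSG00000031996, 31149557 to 31211815, minus strand). Bace1 (ENSMUSG00000032086, 45838580 to 45864399) and Adam10 (ENSMUSG00000054693, 70678997 to 70780229) lay on the plus strand of chromosome 9. Bace2 (ENSMUSG00000040605) lay on chromosome 16 from 97356742 to 97442936 on the plus strand, and Adam17 (ENSMUSG00000052593) on chromosome 12 from 21323509 to 21373632 on the minus strand. Bace1 overlapped Rnf214 and Gm16536 on the other strand, and Adam17 overlapped Iah1, so reads of these partners could not be told apart from theirs if counting ignored strand. The antisense genes inside App had 0 UMIs.

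The 32041 nuclei kept were grouped by clustering without the 7 members into 40 clusters, and most clusters were named from marker genes, so that each name stands for nuclei that resemble that cell type. They comprised 13683 excitatory neurons, 7076 oligodendrocytes, 2788 astrocytes, 2091 microglia, 1702 inhibitory neurons, 1111 oligodendrocyte precursor cells (OPCs) and 225 Cajal-Retzius cells. In addition, 8.34% of nuclei were in clusters that could not be named. Levels are given as CPM, the UMI (molecule) count of a gene divided by all UMIs of that cell type in 1 library and scaled to 1000000. Libraries held 21020159 to 43310978 UMIs. Label checks went as follows. Gsap was slightly lower in all 3 GKO libraries (19.8 to 22.0 CPM over all nuclei, against 22.3 to 23.0 in WT), and counts per gene are a weak check where an allele lacks only some exons. Libraries fell into 3 batches by the date in their deposited names: WT 1 with GKO 1, then WT 2, WT 3, GKO 2, GKO 3 and J20;GKO, and J20;WT alone. Xist was at 1.68 to 3.00 CPM over all nuclei in 5 libraries and above 2130 CPM in WT 1, GKO 1 and J20;GKO, so sex went with batch outside J20 and differed between the 2 J20 mice.

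App was most abundant in oligodendrocytes among the 7 classes and least abundant in astrocytes and microglia. Oligodendrocytes held 1109, 1546 and 1772 CPM in WT 1 to 3 and 1051, 1272 and 1389 CPM in GKO 1 to 3, a mean of 1356 ± 273 (SD, n = 6). Excitatory neurons held 481, 452 and 468 CPM in WT and 450.0, 426 and 456 CPM in GKO, a mean of 456 ± 18.7 (SD, n = 6). The 2 classes did not overlap in any library. In the 6 non-J20 mice the oligodendrocyte level was higher by 1.55 ± 0.29 (SD, n = 6) on the log2(CPM + 1) scale, in 6 of 6 mice. Over all 8 mice the oligodendrocyte level was higher by 1.75 ± 0.45 (SD, n = 8) on the log2(CPM + 1) scale (two-sided exact paired permutation test over mice, p = 0.00781, the smallest that 8 mice allow; adjusted p = 0.0129 over the 17184 genes tested). Counted as UMIs per nucleus, the order turned round in the 6 non-J20 mice: oligodendrocytes had 2.60 to 4.40 App UMIs and excitatory neurons, which held several times more UMIs in all, had 4.46 to 7.07. It did not turn in the J20 mice, with 10.7 App UMIs in oligodendrocytes against 8.18 in excitatory neurons of J20;WT and 13.5 against 12.9 in J20;GKO.

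Cajal-Retzius cells, the reelin-secreting neurons of the outer layer, were next, at 797, 731 and 926 CPM in WT and 721, 726 and 865 CPM in GKO. The log2 difference from excitatory neurons was 0.65 over 8 mice and 0.80 in the 6 non-J20 mice. Over 8 mice it was -1.15 as UMIs per nucleus, and 0.19 without a call when nuclei were named by a marker gate instead of by cluster. Inhibitory neurons had 545, 542 and 637 CPM in WT and 588, 492 and 563 CPM in GKO, above excitatory neurons in each of the 6 non-J20 mice (difference of 0.30 on the log2 scale, exact p = 0.0313, the smallest that 6 mice allow). Over all 8 mice that difference was 0.14 and missed the threshold (exact p = 0.234), with less App in inhibitory than in excitatory neurons in both J20 libraries. Within inhibitory neurons, the Vip group stood at 741 ± 94.3 CPM (SD, n = 6), against 493 ± 50.1 in the Sst, 480.2 ± 45.7 in the Pvalb and 502 ± 41.5 in the Lamp5 group.

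**Figure D1:**
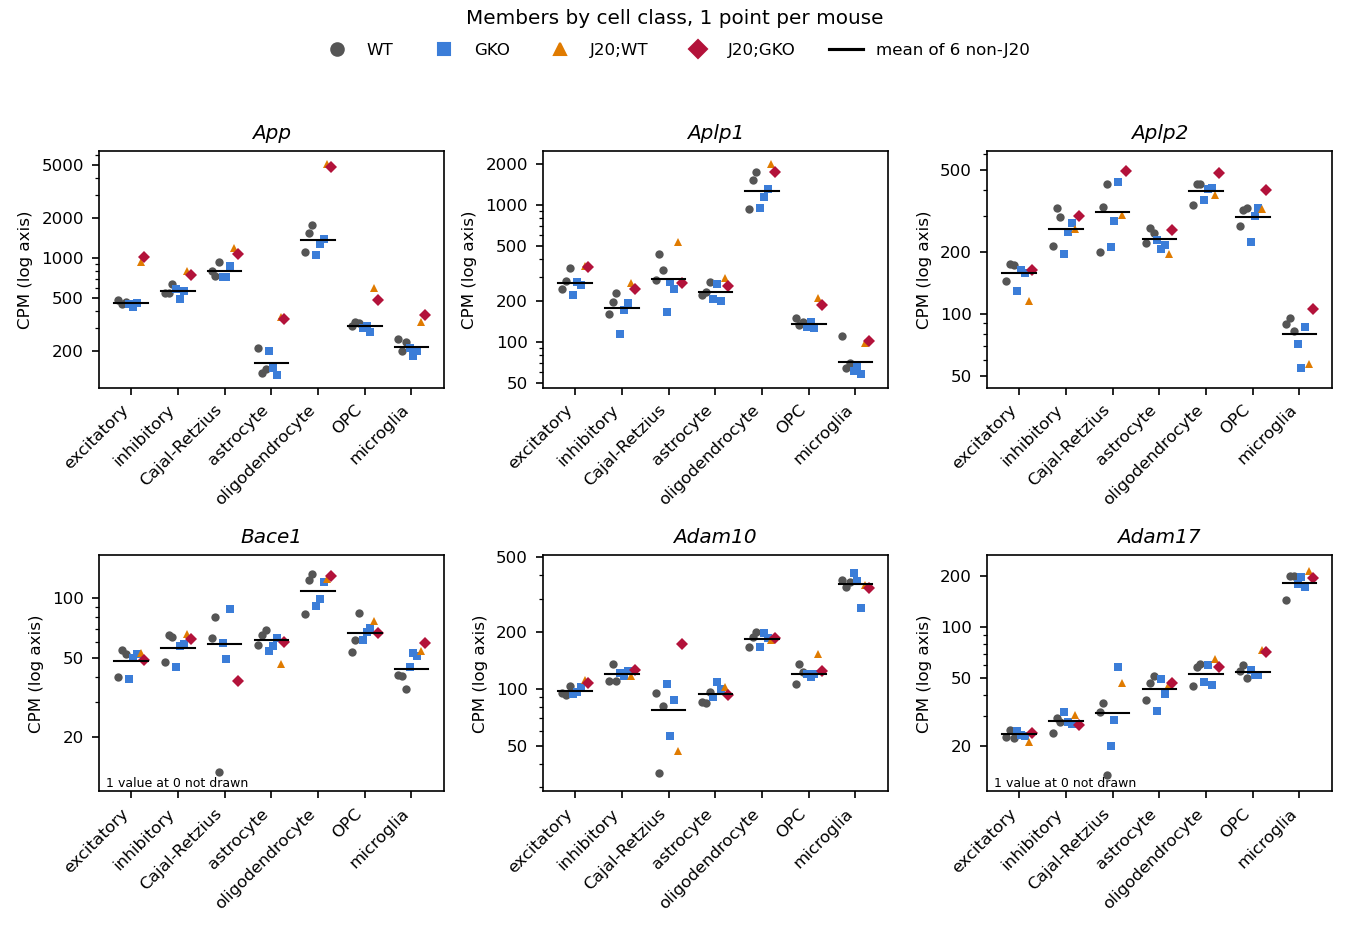
Levels of 6 members in 7 cell classes, in CPM on a log axis, 1 point per mouse, with a black line at the mean of the 6 non-J20 mice. App and Aplp1 stood highest in oligodendrocytes, Adam10 and Adam17 in microglia, and the 2 J20 points lay above all others for App in all 7 classes. One value at 0 in Cajal-Retzius cells is not drawn for Bace1 and 1 for Adam17.

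OPCs had 308 ± 18.3 CPM of App (SD, n = 6), astrocytes 162 ± 33.5 and microglia 212 ± 23.9. The differences from excitatory neurons were -0.64, -1.50 and -1.20 on the log2 scale, with 8 of 8 mice lower in each class. In order of level, each class differed from the next by the same exact test, except inhibitory from excitatory neurons and microglia from astrocytes. Free RNA can add neuronal transcripts to glial droplets. Taken one by one, 5 excitatory neuron genes stood at 13.8 to 26.5% of their mean neuronal level in astrocytes of non-J20 mice, and at 5.34 to 34.6% in microglia. Their summed level was 390 to 583 CPM in astrocytes and 257 to 389 CPM in microglia, against 2895 to 3020 CPM in excitatory neurons. The mean App level was 35.5% and 46.6% of the neuronal level in these classes, 67.5% in OPCs. The part of free RNA in these low levels was not tested.

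Aplp1, the family member known mainly from the nervous system, had the same leading class. Oligodendrocytes held 936, 1527 and 1739.9 CPM in WT and 955, 1152 and 1316 CPM in GKO, against 241, 278 and 346 CPM and 219.6, 275 and 258 CPM in excitatory neurons. The lowest oligodendrocyte library was above the highest neuronal one, and the log2 difference over 8 mice was 2.25 (exact paired permutation test, adjusted p = 0.0129). Per nucleus, as UMIs, that difference was -0.07. Aplp1 was lower than in excitatory neurons in inhibitory neurons (177 ± 38.3 CPM, SD, n = 6), astrocytes (232 ± 30.3), OPCs (136 ± 8.84) and microglia (71.6 ± 19.3), with log2 differences of -0.59, -0.25, -0.94 and -1.89 and 8 of 8 mice lower in each.

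Aplp2, the widely expressed member, was spread differently. Oligodendrocytes (395 ± 37.4 CPM, SD, n = 6), Cajal-Retzius cells (315 ± 103) and OPCs (295 ± 41.7) led, and no neighbouring pair among them differed. Inhibitory neurons held 259.8 ± 49.6 CPM and astrocytes 231 ± 20.9. Excitatory neurons were lower, with 145, 175 and 174 CPM in WT and 129, 163 and 158 CPM in GKO, and microglia lowest at 80.0 ± 14.7. All 5 classes above excitatory neurons passed the exact test against them, by 0.59 to 1.4 on the log2 scale. On the scale of UMIs per nucleus the sign turned in Cajal-Retzius cells (-0.72), astrocytes (-0.76), oligodendrocytes (-0.92) and OPCs (-0.24).

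Bace1 varied least across the classes. Excitatory neurons held 40.3, 54.4 and 52.5 CPM in WT and 39.2, 49.7 and 52.1 CPM in GKO. Oligodendrocytes held 83.2, 123 and 130.4 CPM in WT and 91, 97.8 and 120.1 CPM in GKO, higher in 8 of 8 mice by 1.18 on the log2 scale (exact test, adjusted p = 0.0129), but with a difference of -1.13 as UMIs per nucleus. OPCs (66.2 ± 10.4 CPM, SD, n = 6), astrocytes (61.1 ± 5.43) and inhibitory neurons (56.2 ± 8.25) did not differ from each other in neighbouring pairs. All 3 were above excitatory neurons by 0.25 to 0.46, with a turned sign as UMIs per nucleus in OPCs (-0.80) and astrocytes (-1.07), and microglia (44.2 ± 6.73) did not differ detectably from excitatory neurons (difference of -0.05, exact p = 0.641). In Cajal-Retzius cells Bace1 had 43 UMIs in all 8 libraries together, too few to place it.

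Bace2, the homologue of Bace1 that cuts App mainly within the amyloid-beta stretch, was close to the limit of detection. Excitatory neurons held 558 UMIs in all, or 2.66 ± 1.61 CPM (SD, n = 6). Of these UMIs, 303 were in CA3 neurons, at 11.5, 0.517 and 5.55 CPM in WT, 2.22, 7.74 and 18.8 CPM in GKO, 20.8 CPM in J20;WT and 14.9 CPM in J20;GKO. The CA3 values overlapped those of CA1 neurons, 1.11 to 2.44 CPM in the non-J20 mice. Dentate granule neurons had 27 Bace2 UMIs, inhibitory neurons and astrocytes 28 each, OPCs 5 and microglia 3, and Cajal-Retzius cells 0.

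Adam10 was most abundant in microglia, with 378, 347 and 367 CPM in WT and 408, 373 and 269 CPM in GKO. Excitatory neurons held 94.6, 92.5 and 103 CPM in WT and 94.1, 95.6 and 102 CPM in GKO. The 2 classes did not overlap, and the log2 difference was 1.81 over 8 mice (exact paired permutation test, p = 0.00781; adjusted p = 0.0143 over 17149 genes). As UMIs per nucleus the difference turned to -0.68. Thinned to 1000 UMIs per nucleus, 29.0% of microglia and 9.07% of excitatory neurons of non-J20 mice had an Adam10 UMI, against 47.7% and 60.8% before thinning, at median depths of 1954 and 10434.5 UMIs. Oligodendrocytes were second at 184 ± 14.6 CPM (SD, n = 6), higher than excitatory neurons by 0.87, then OPCs at 119.6 ± 9.52 and inhibitory neurons at 119 ± 9.48. As UMIs per nucleus the sign turned in oligodendrocytes (-1.45) and OPCs (-0.96). Among inhibitory neurons, the Lamp5 group stood at 197 ± 16.8 CPM, against 94.6 to 104 in the mean of the other groups.

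Adam17 rose toward microglia more steeply. Microglia held 146, 200.4 and 199.9 CPM in WT and 181, 199 and 174 CPM in GKO, against 22.6, 24.9 and 22.2 CPM and 24.4, 23.0 and 22.8 CPM in excitatory neurons. The log2 difference was 2.97 over 8 mice (exact test, adjusted p = 0.0143), and Adam17 was also higher in microglia as UMIs per nucleus, by 0.51. After thinning, 16.9% of microglia and 2.28% of excitatory neurons of non-J20 mice had an Adam17 UMI, against 30.9% and 23.0% before. OPCs (54.3 ± 3.35 CPM, SD, n = 6), oligodendrocytes (52.8 ± 7.51) and astrocytes (43.1 ± 7.67) lay between, and all 3 were above excitatory neurons in 8 of 8 mice by 0.89 to 1.30 on the log2 scale. As UMIs per nucleus the sign turned in astrocytes (-0.44) and oligodendrocytes (-1.08).

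Over the 7 members, 33 of 42 comparisons of a class with excitatory neurons passed the exact test, with p adjusted over the genes tested in that class. The same test called many genes in each class. Among members, 6 were higher and 0 lower in oligodendrocytes, where 30.8% of all genes were higher and 42.1% lower. In microglia 2 were higher and 4 lower (32.7% and 34.3% of all genes), in astrocytes 3 and 2 (30.3% and 36.7%), and in OPCs 4 and 3 (24.7% and 26.9%). In inhibitory neurons 4 were higher and 2 lower (28.6% and 22.7% of all genes), and in Cajal-Retzius cells 2 and 1 (6.27% and 17.4%). With the 6 non-J20 mice alone, 33 of 42 comparisons also reached the smallest p that 6 mice allow, 0.0313.

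Within excitatory neurons, dentate granule neurons (5721 nuclei), CA1 neurons (2763) and CA3 neurons (1671) differed in most members. Granule neurons had more Aplp1 and less Adam10 than CA1 neurons, and CA1 neurons had less Aplp2 than both of the others. Aplp1 was at 316, 354 and 432 CPM in WT and 308, 342 and 333 CPM in GKO in granule neurons, against 274 ± 56.2 in CA1 and 214 ± 30 in CA3 (SD, n = 6). It was higher in granule neurons in 8 of 8 mice, by 0.40 and 0.75 on the log2 scale (exact paired permutation test, adjusted p = 0.0197 and 0.0182 over all genes). They were negative as UMIs per nucleus, at -0.29 and -0.30.

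Aplp2 was at 101, 123 and 129 CPM in WT and 92.0, 119.6 and 120.5 CPM in GKO in CA1 neurons, against 183 ± 16.6 in granule and 164 ± 25.3 in CA3 neurons (SD, n = 6). The CA1 level was below that of granule neurons by 0.65 and differed from that of CA3 by -0.48 on the log2 scale. With UMIs per nucleus, the granule neuron difference was -0.03, the opposite sign, whereas CA1 stayed below CA3. Adam10 was at 96.4 ± 7.78 CPM in CA1, 81.8 ± 3.16 in granule and 75.5 ± 7.99 in CA3 neurons, with differences of 0.40 for CA1 minus CA3 and -0.23 for granule minus CA1 neurons, 8 of 8 mice each.

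App itself was lower in granule neurons of non-J20 mice, with 357, 338 and 375 CPM in WT and 371, 319 and 327 CPM in GKO, against 501 ± 26.3 in CA1 and 466 ± 17.7 in CA3 (SD, n = 6). The 6 mice did not overlap between granule neurons and either field, and the differences were -0.53 and -0.42 on the log2 scale (exact p = 0.0313 each, the smallest that 6 mice allow). Over 8 mice the sizes were -0.33 and -0.21 and missed the threshold after adjustment, with more App in granule neurons than in CA1 and CA3 in both J20 libraries. CA1 was above CA3 by 0.12, but not as UMIs per nucleus (-0.24). Bace1 was higher in granule neurons than in CA1 by 0.22, but at -0.46 as UMIs per nucleus, and Adam17 ranged from 22.1 to 25.6 CPM in the mean of the 3 fields.

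**Figure D2:**
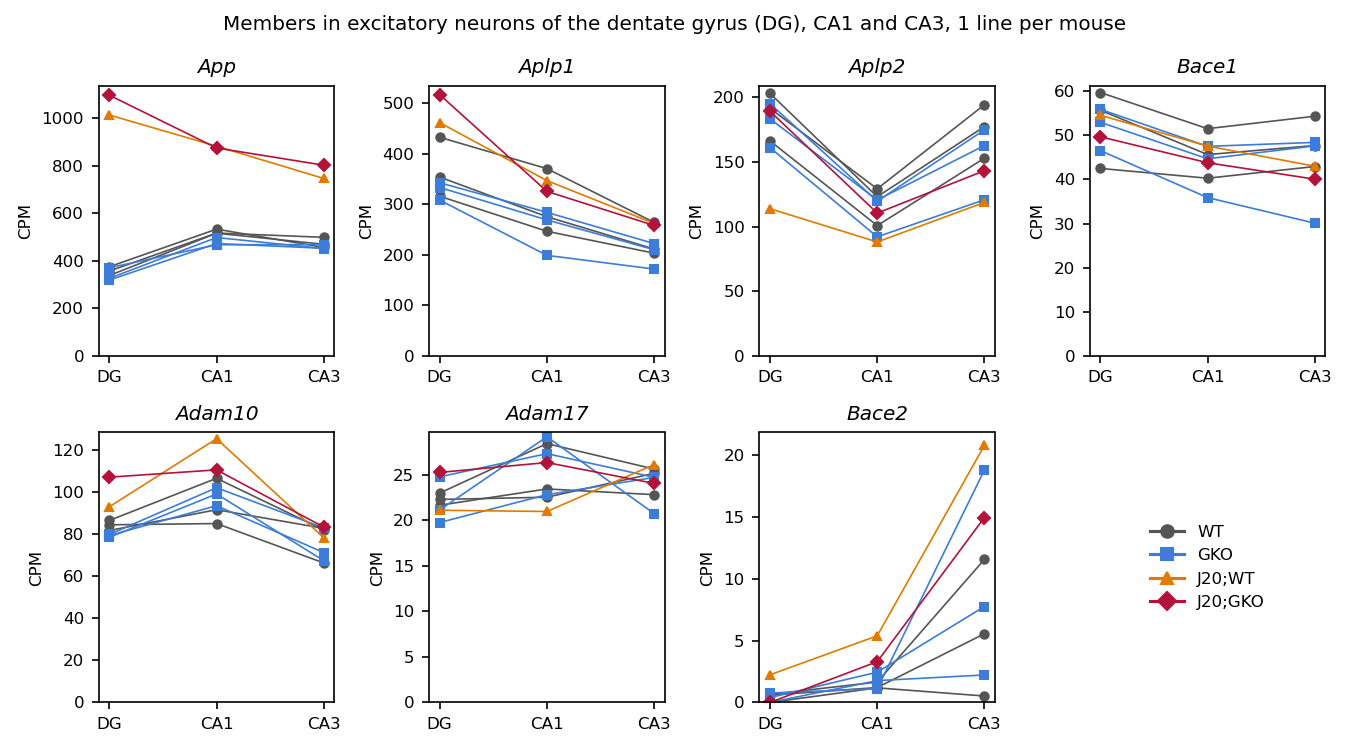
Level of each member in dentate granule, CA1 and CA3 neurons, in CPM, with 1 line per mouse. For App, the 6 non-J20 lines rise from granule to CA1 neurons and the 2 J20 lines fall, whereas Aplp1 falls and Aplp2 dips at CA1 in every line.

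In all, 13 of 21 comparisons between the 3 fields passed with p adjusted over all genes, and 16 with p adjusted over these 21. Of all genes, 29.1% were higher and 22.2% lower in granule than in CA1 neurons, 30% and 24.5% in granule than in CA3 neurons, and 17.9% and 18.8% in CA1 than in CA3 neurons. The members' calls were 3 higher and 3 lower, 2 higher and 1 lower, and 3 higher and 1 lower.

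GKO and WT mice were compared to ask whether loss of GSAP, which binds gamma-secretase, went with other levels of its substrates or of the upstream proteases. No member was called in any cell class. App in excitatory neurons was at 450.0, 426 and 456 CPM in GKO and 481, 452 and 468 CPM in WT, a log2 fold change of -0.05 ± 0.11 (SE; edgeR quasi-likelihood test, adjusted p = 1.00). In oligodendrocytes, the class with most App, it was -0.24 ± 0.20, and the groups overlapped: within the first batch the levels were 1109 CPM in WT 1 and 1051 in GKO 1, and within the second 1546 and 1772 in WT against 1272 and 1389 in GKO. A call needed an adjusted p under 0.05 over all genes and a log2 fold change above 0.3 in size.

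Of 40 member tests over the 7 classes, 0 were called by edgeR and 0 by DESeq2, and 1 had an unadjusted p under 0.05 (Aplp1 in Cajal-Retzius cells, -0.64 ± 0.29, adjusted p = 0.994). In the 4 groups of excitatory neurons, 0 of 25 were called and 0 had an unadjusted p under 0.05. The share of all genes called was 0% in every class and group. Fitted changes were negative in 7 of 7 classes for App (-0.24 to -0.02), Aplp1 (-0.64 to -0.10) and Aplp2 (-0.33 to -0.01), and of both signs for Bace1 (-0.12 to 0.33), Adam10 (-0.06 to 0.18) and Adam17 (-0.13 to 0.13). Bace2 could be fitted in excitatory neurons only, at 0.61 ± 0.51. Since the classes come from the same mice, the shared sign is not independent support, and p-values measure the spread between single mice. Leaving out 1 mouse turned the App sign above 0 in excitatory and inhibitory neurons, Cajal-Retzius cells and astrocytes, at most to 0.20 (astrocytes without WT 1).

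**Figure D3:**
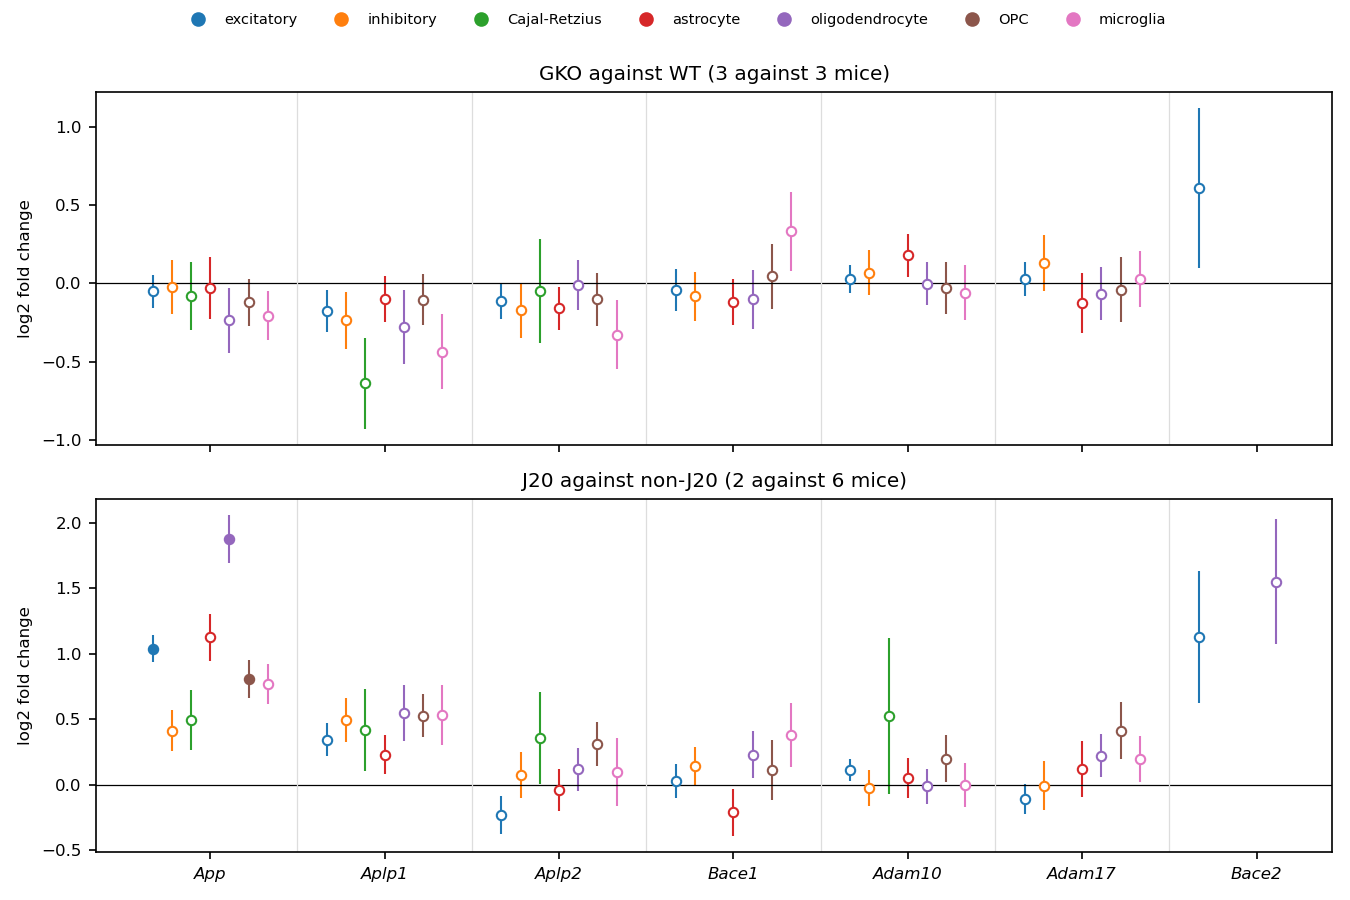
Fitted log2 fold changes of the members by cell class, with bars of 1 SE, for GKO against WT (top) and J20 against non-J20 (bottom). Filled points passed the threshold: 0 in the top row, and App in excitatory neurons, oligodendrocytes and OPCs in the bottom row.

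J20 mice were compared with non-J20 mice, with Gsap genotype as a term, to describe App and its proteases where human APP is expressed from the transgene. Counts were made against mouse genes, and whether transgene reads were counted on mouse App cannot be told apart from a change of mouse App in these files. The J20 mice were also 1 month younger. Over all nuclei, App was at 1096 CPM in J20;WT and 1250 CPM in J20;GKO, against 463 to 550 CPM in the others. Free RNA can therefore carry more App into glial droplets of J20 mice. The 5 excitatory neuron genes summed to 426 to 509 CPM in astrocytes, 289 to 361 in microglia and 474 to 522 in OPCs of J20 mice. In the other mice these sums were 390 to 583, 257 to 389 and 598 to 1010 CPM. The part of free RNA in the glial J20 changes was not tested. App was higher in J20 in every class. In excitatory neurons it was at 936 CPM in J20;WT and 1011 CPM in J20;GKO (exact 95% Poisson intervals of 921 to 952 and 995 to 1027, for counting error only), against 426 to 481 CPM in the other 6. The log2 fold change was 1.04 ± 0.10 (SE; edgeR, adjusted p = 0.00464), where 0.355% of all genes were called.

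Oligodendrocytes showed the largest App values among the classes, at 5113 CPM in J20;WT and 4821 CPM in J20;GKO, against 1051 to 1772 CPM in the other mice. The fold change was 1.87 ± 0.18 on the log2 scale (edgeR, adjusted p = 0.00239), where 0.0172% of genes, or 2 genes, were called. As UMIs per nucleus, oligodendrocytes of the J20 mice held 10.7 and 13.5 App UMIs, against 2.60 to 4.40. The mean rose 3.66-fold, or by 3610 CPM, which compares with 518 CPM added in excitatory neurons. Leaving out J20;WT gave 2.01 with an adjusted p of 0.230, and leaving out J20;GKO gave 1.73 with 0.127, so the call rests on having both.

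OPCs had 598 and 484 CPM in the J20 mice and 279.8 to 331 CPM in the others (0.81 ± 0.15, edgeR adjusted p = 0.0324, with 0.0509% of genes called). That call was lost without doublets (0.57) and under the marker gate (0.38), and it held only without WT 1 and without GKO 1 among the 8 fits that leave out a mouse. Astrocytes had 361 and 350.4 CPM against 132 to 209, microglia 327 and 375 against 184 to 247, inhibitory neurons 798 and 749 against 492 to 637, and Cajal-Retzius cells 1191 and 1068 against 721 to 926. Both J20 libraries were above the other 6 in these classes too, but the edgeR adjusted p-values were 0.111, 0.161, 0.576 and 0.702, and the share of all genes called was 0% in each. The astrocyte change (1.13 ± 0.18) was called with a term for batch, by DESeq2, with no filter on low counts and without WT 1. The microglial change (0.77 ± 0.15) was called with the batch term (0.98) and with no filter (0.74), but in 0 of 8 fits that leave out a mouse. With the batch term J20;WT has a term of its own, so those values rest on J20;GKO and its batch mates. In that batch only J20;GKO had high Xist, so J20 cannot be told apart from sex in any fit with the batch term.

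In all 7 classes both J20 libraries were above the other 6 for App, in 4 for Aplp1, in 1 each for Bace1, Adam10 and Adam17, and in 0 for Aplp2 and Bace2. Of all genes with at least 100 UMIs, 10.5% had both J20 libraries above the others in excitatory neurons, 7.39% in inhibitory neurons, 5.92% in Cajal-Retzius cells, 5.33% in astrocytes, 5.03% in oligodendrocytes, 5.83% in OPCs and 3.92% in microglia.

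**Figure D4:**
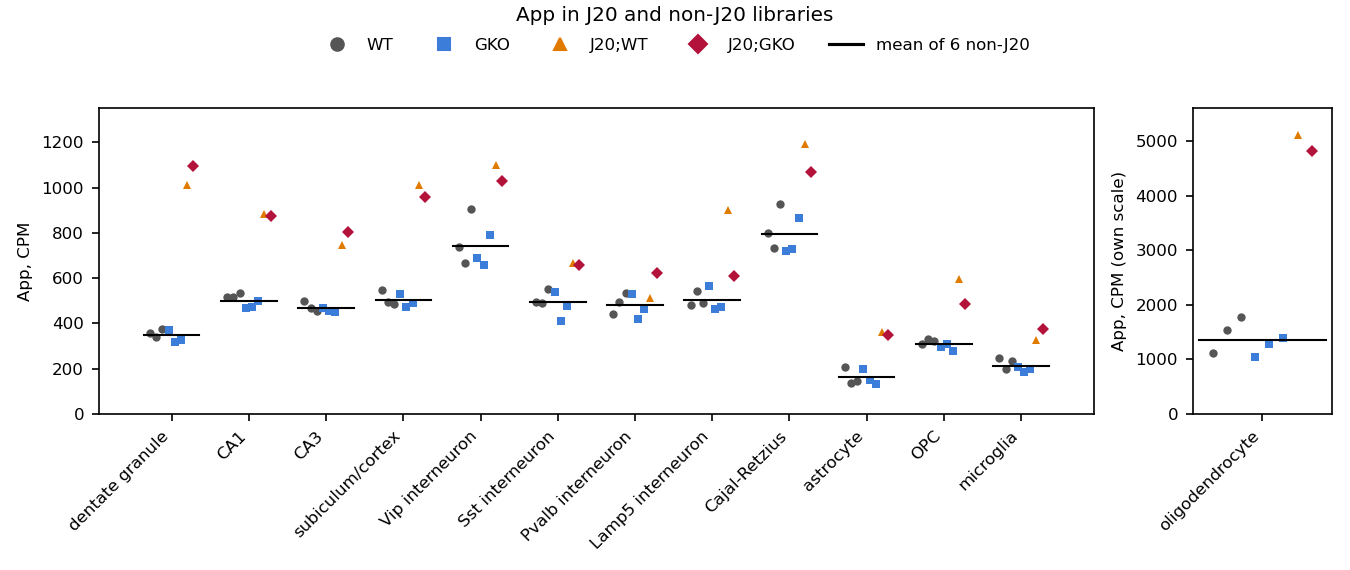
App level in CPM in 12 cell types on a linear axis, with oligodendrocytes on a scale of their own, 1 point per mouse. The J20 points are separate from the others in granule, CA1, CA3 and subiculum or cortex neurons, and within the range of the others for J20;WT in Pvalb interneurons.

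Among excitatory neurons the rise was uneven. Granule neurons, the group with least App in non-J20 mice, held 1013 CPM in J20;WT and 1097 CPM in J20;GKO, against 319 to 375 CPM (1.53 ± 0.12, edgeR adjusted p = 3.15e-05, with 5.98% of genes called). CA1 neurons held 882 and 875 CPM against 468 to 533 (0.76 ± 0.11, adjusted p = 0.0316, 0.0495% of genes), and CA3 neurons 747 and 802 CPM against 452 to 499 (0.69 ± 0.12, adjusted p = 0.0467, 0.0518% of genes). The granule neuron call held in 8 of 8 fits that leave out a mouse, the CA1 call in 2 (without WT 1 and without GKO 1) and the CA3 call in 1 (without GKO 1). Under the marker gate the CA1 and CA3 calls were lost (edgeR adjusted p = 0.116 and 0.0887), and the CA3 call also without doublets (0.0603). Subiculum or cortex neurons held 1012 and 959 CPM against 474 to 546 (0.92 ± 0.13, edgeR adjusted p = 0.0519, 0.015% of genes). That change just missed the threshold, but it was called under all 6 alternatives (0.91 to 1.26, largest adjusted p = 0.0470) and in 2 of 8 fits that leave out a mouse (without WT 1 and without GKO 1).

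The differences between these changes were tested in a model with the mouse as a term. The J20 change of App was larger in granule than in CA1 neurons by 0.76 ± 0.10 on the log2 scale (SE; edgeR, adjusted p = 9.77e-05, with 3.03% of genes called) and than in CA3 neurons by 0.85 ± 0.09 (adjusted p = 1.67e-05, 3.05% of genes). Both were called without any 1 of the 8 mice. CA1 and CA3 did not differ (0.07 ± 0.08, adjusted p = 0.958, 0.0757% of genes). Inhibitory neurons changed less than excitatory neurons (-0.65 ± 0.12, adjusted p = 0.0264, 0.0747% of genes), a call that held only without WT 1 and without GKO 1, with a range of -0.75 to -0.54. The excitatory class includes the granule neurons, and inhibitory neurons were not tested against CA1 or CA3 neurons alone. The larger change of oligodendrocytes than of excitatory neurons did not pass (0.81 ± 0.20, adjusted p = 0.412, 0% of genes). Over the 9 pairs of types, 3 of 63 member tests were called, all for App, where OPCs (0.112%), microglia (0.071%), astrocytes (0.0113%) and Cajal-Retzius cells (0.00614%) against excitatory neurons had few calls of any gene.

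Zbtb20, where the transgene is inserted by the strain's name, was lower in granule neurons of the same libraries. It stood at 2085.6 and 1818 CPM in granule neurons of J20 mice and at 3022 to 4040.1 CPM in the others (-0.93 ± 0.18, edgeR adjusted p = 0.00956). Its values in other cell types are not reported here, and its part in the granule neuron result was not tested.

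At the level of clusters, the mean App level of J20 mice exceeded that of the others 1.63- to 3.07-fold in the 12 excitatory clusters, with both J20 libraries on top in 12 of 12. These clusters come from the same mice, and the share of all genes in that order was not computed per cluster. Per group, it was 15.0% of genes with at least 100 UMIs in granule neurons and 8.95% in CA1 neurons. In CA3 neurons it was 7.38% and in subiculum or cortex neurons 7.19%. The 2 granule neuron clusters were at 2.93- and 3.07-fold. The 4 oligodendrocyte clusters ranged from 2.87- to 4.12-fold and the 4 inhibitory clusters from 1.18- to 1.5-fold.

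**Figure D5:**
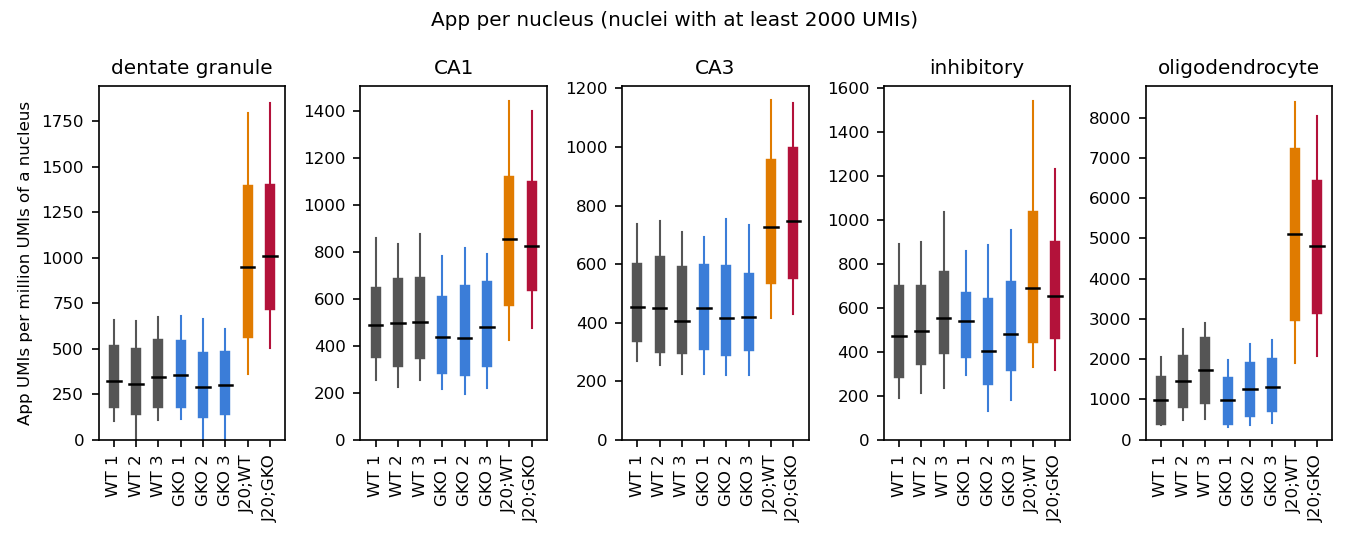
App per nucleus in CPM for each library in 5 cell types, for nuclei with at least 2000 UMIs, with the median as a short black line, the quartiles as a bar and the 10th to 90th percentile as a thin vertical line. In oligodendrocytes the medians are 5112 and 4804 CPM in the J20 mice and 981 to 1723 CPM in the others.

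The rise was broad over nuclei in oligodendrocytes and granule neurons. Of astrocytes with at least 2000 UMIs, 48.3% in J20;WT and 37.5% in J20;GKO had no App UMI, against 49.0 to 70.1% in the others. For microglia these shares were 35.3% and 51.5%, against 52.1 to 71.4%. In oligodendrocytes with at least 2000 UMIs, the median nucleus held 981 to 1723 CPM of App in non-J20 mice and 5112 and 4804 CPM in J20;WT and J20;GKO. The 10th percentiles of the J20 libraries were 1914 and 2077 CPM, and the 90th percentiles of the others 1983 to 2899 CPM. Thinned to 1000 UMIs, 71.9% of oligodendrocytes of non-J20 mice and 97.2% of J20 mice had an App UMI (91.2% and 99.6% unthinned, at median depths of 2184 and 2256 UMIs). In granule neurons the thinned share was 29.2% and 63.0% (90.4% and 98.7% unthinned, at 8087.5 and 6589 UMIs), and in inhibitory neurons 40.9% and 52.0%.

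J20;WT and J20;GKO are 1 mouse each and were not tested against each other. Their exact 95% intervals for App overlapped in 5 of 7 classes. The exceptions were excitatory neurons, lower in J20;WT, and oligodendrocytes, higher in J20;WT (4979 to 5250 against 4721 to 4922 CPM). Intervals overlapped in 5 of 7 classes for Aplp2, 6 for Aplp1 and Bace2, and 7 for Bace1, Adam10 and Adam17. These intervals cover counting error only and are wide, relative to the level, where counts are low. The number of classes therefore does not rank the members by how much the mice differ. The share of all genes with overlapping intervals was not computed. Aplp2 in excitatory neurons was at 116 CPM in J20;WT and 163 CPM in J20;GKO, the first of these below all non-J20 mice (129 to 175 CPM). J20;WT and J20;GKO also differed in batch and sex, and the part of these in such differences was not tested.

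The other members were not called in J20 in any class, in 35 tests. Aplp1 had fitted changes of 0.23 to 0.55 in 7 of 7 classes, 5 with an unadjusted p under 0.05, and its smallest edgeR adjusted p was 0.289. In excitatory neurons it was at 358 and 350.5 CPM against 219.6 to 346 CPM (0.34 ± 0.13), and in oligodendrocytes at 1979.5 and 1743 CPM against 936 to 1739.9 CPM (0.55 ± 0.21). In granule neurons, with 461 and 516 CPM against 308 to 432, the change was 0.43 ± 0.13 (adjusted p = 0.0711), and it was called with a batch term (0.55), with library size alone (0.50) and by DESeq2 (0.43). Aplp2 ranged from -0.23 to 0.36, Bace1 from -0.21 to 0.38, Adam10 from -0.02 to 0.53 and Adam17 from -0.11 to 0.41. Bace2 was at 1.13 ± 0.50 in excitatory neurons (7.92 and 4.10 CPM against 0.885 to 5.51) and 1.55 ± 0.48 in oligodendrocytes (12.1 and 6.49 CPM against 1.06 to 7.32), with adjusted p-values of 0.371 and 0.545. In oligodendrocytes the filter on low counts kept Bace2 in the J20 comparison but not in GKO against WT. It passed through the J20 libraries, with 13 UMIs in J20;WT and 12 in J20;GKO, so its test there gives no support. Over all 42 member tests in the classes 3 were called, all for App, and 14 had an unadjusted p under 0.05. Since the classes come from the same mice, shared signs and counts over classes are not independent support. Counts over all genes are given with the pathway list below. The GKO and J20 comparisons share the 6 non-J20 libraries.

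Other genes of the pathway were read from the same fits: 41 of 42 listed genes were in the files and 40 were tested. Among gamma-secretase genes, Ncstn, the subunit that receives substrates, was highest in microglia (97.7 ± 22.4 CPM, SD, n = 8), as was Psenen (70.7 ± 17.2), whereas Aph1a was highest in astrocytes (56.3 ± 10.4). Of the partners of Bace1, Rtn4, the reticulon known as Nogo, was highest in oligodendrocytes (1409 ± 381) and Rtn3 in inhibitory neurons (578 ± 55.4). Of the tetraspanins that carry Adam10, Tspan14 was highest in microglia (249 ± 27.1) and Tspan5 in excitatory neurons (428 ± 50.7). Sorl1, a sorting receptor for App, was highest in excitatory neurons (164 ± 14.8), and the lysosomal protease Lgmn in microglia (1797 ± 536).

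In GKO mice, 0 of 228 tests of these genes in the classes were called by edgeR and 0 by DESeq2, with 4 at an unadjusted p under 0.05, and 0 of 152 in the groups of excitatory neurons, with 2. Among the smallest p-values were those of Ctsb in CA3 neurons (-0.31 ± 0.13) and Adam19 in granule neurons (-0.77 ± 0.31), each with an adjusted p above 0.99. In J20 mice, 0 of 231 tests in the classes were called by edgeR and 2 by DESeq2, with 34 at an unadjusted p under 0.05. Of all genes, the number with an unadjusted p under 0.05 lay between 729 of 12557 in astrocytes and 2402 of 18049 in excitatory neurons. The median log2 fold change was 0.08 over the list. By group it was 0.28 over the 40 tests of gamma-secretase genes (9 under 0.05), 0.13 over 39 of other proteases that cut App (7), 0.10 over 36 of ADAM partners and inhibitors (4), 0.062 over 26 of Bace1 partners (1), 0.034 over 72 of App adaptors and sorting genes (12) and -0.0036 over 18 of amyloid-beta degrading enzymes (1). Over all genes the median in a class was between -0.042 and -0.0023. The tests repeat the same genes over classes of the same mice, so these medians and counts are not independent support. In the groups of excitatory neurons, the median for gamma-secretase genes was 0.10 over 28 tests (8 under 0.05).

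Of 155 tests in the groups of excitatory neurons, 1 was called: Tspan33, a tetraspanin partner of Adam10, fell by 0.73 ± 0.16 in granule neurons (edgeR, adjusted p = 0.0199), where 5.98% of all genes were called. The smallest p-values in the classes were those of Ctsb, cathepsin B, in microglia (0.97 ± 0.17, adjusted p = 0.161) and Itm2c, an inhibitor of App processing, in inhibitory neurons (0.79 ± 0.13, adjusted p = 0.259). The list was not trimmed by how its genes moved.

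Over 13 cell types of the non-J20 and J20 mice together, log2 mean levels of App went most closely with Sez6l2 (Pearson r = 0.94), Hid1 (0.93) and Dixdc1 (0.92). Those of Aplp1 went with Tmcc2, Cdc42bpa and Tmod2 (0.93 each), of Aplp2 with Sema6a (0.92), Tmem5 (0.91) and Dnm3 (0.90), and of Bace1 with Enpp4 (0.94), Tspan2 (0.94) and Cep97 (0.93). All but those of the ADAMs were highest in oligodendrocytes. Those of Adam10 went with Vta1 (0.92), Slc43a2 (0.91) and Mon2 (0.88), and of Adam17 with Sft2d1 (0.97), Msn (0.97) and Unc93b1 (0.96), each highest in microglia. Between members, r was 0.79 for App and Aplp1, 0.72 for Adam10 and Adam17 and -0.32 for App and Adam17. The 13 points share libraries and differ in depth, and the values are a description.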

How the data were processed

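Per the labels and the study's methods, nuclei of frozen hippocampus were profiled with the 10X Chromium 3' assay, and the authors deposited raw UMI counts per gene and nucleus made with Cell Ranger 3.0.2 on mm10. Whether intronic reads were counted and how strand was used are not given in the sources used here. No column was left unmapped.

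Nuclei with at most 5% mitochondrial UMIs and 200 to 7500 genes were kept, as in the study: 32041 of 33314 barcodes, with median depths of 4579 to 6438.5 UMIs per library. Pairs of libraries shared 2 to 21 barcodes. They were clustered with Seurat 5.3.0 and sctransform 0.4.2 in R 4.3.3 (3000 features without the members, 30 principal components, 20 neighbours, resolution 0.8), and clusters were named only where 3 or more listed markers were raised and no other class scored alike. A cluster with over 25% of Scrublet doublet calls (scanpy 1.11.5) stayed unnamed. Scrublet marked 3.45 to 6.50% of nuclei in 6 libraries, but 1 nucleus in WT 1 and 0 in GKO 1, where it did not work. Classes with at least 10 nuclei in every library were compared.

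Counts were summed per mouse and type. GKO was compared with WT, and J20 with non-J20 with Gsap genotype as a term, by edgeR 4.0.16 (quasi-likelihood test, TMM, filter on low counts, Benjamini-Hochberg over all genes of a type), with DESeq2 1.42.0 as an alternative. Types were compared over mice by a two-sided exact sign-flip permutation test of log2(CPM + 1), with p adjusted over all genes with at least 100 UMIs, an adjustment chosen after seeing the data, beside the planned one over the member tests. The edgeR test of J20 changes between types was also added after seeing the data. Intervals are exact 95% Poisson intervals. Tests were checked on simulated data, except DESeq2 and the edgeR test of J20 changes between types, which were not. Sequence, exon and positions were read from GENCODE annotation and genome of GRCm38.

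The text names the 7 members, Gsap, Zbtb20 and Xist as label checks, the 3 genes with the most similar pattern per member (Bace2 excepted) among genes reaching 50 CPM in a type, and pathway genes past the threshold or else with the 3 smallest p-values. Pathway genes given with levels alone were chosen after their values were seen. Some items that this rule names are not reported here. Members and lists were chosen with earlier results of these data known.

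WT and GKO libraries share numbers in the labels. Deviations from group means correlated at 0.57, 0.18 and 0.22 between same-numbered libraries, and from -0.41 to -0.31 between numbers of different batches. Different numbers of the same batch correlated at 0.22 (WT 2 with GKO 3) and 0.30 (WT 3 with GKO 2), so the values show batches rather than pairs. A fit with the replicate block was run all the same. Other alternatives were a batch term, library size alone, no filter, no doublets, a marker gate, UMIs per nucleus and leaving out each mouse.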

Additional observations from a re-analysis of the deposited data

Results flagged for a closer look

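The J20 change of App differed between cell types in 3 tests of the difference itself (edgeR quasi-likelihood test, adjusted over all genes). It was larger in dentate granule than in CA1 neurons by 0.76 ± 0.10 (SE, log2; adjusted p = 9.77e-05) and than in CA3 neurons by 0.85 ± 0.09 (adjusted p = 1.67e-05), with App higher in both J20 mice in all 3 groups. Granule neurons rose 3.03-fold in the mean, CA1 neurons 1.75-fold and CA3 neurons 1.66-fold. Zbtb20 was lower in the same granule neurons by a log2 change of -0.93, and the 2 J20 mice differed in sex and batch.

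It was smaller in inhibitory than in excitatory neurons, by -0.65 ± 0.12 (adjusted p = 0.0264), where the mean rose 1.38-fold and 2.14-fold. Without J20;GKO the difference was -0.54 (adjusted p = 0.519) and without J20;WT -0.75 (adjusted p = 0.0581). The excitatory class includes the granule neurons, and inhibitory neurons were not tested against CA1 or CA3 neurons alone. Samples of 1 mouse each for J20;WT and J20;GKO could not be examined for outliers, nor could the groups of 3.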

How the results depend on the processing

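No member was called in GKO against WT under any of 7 alternatives (the replicate block gave 0, as did DESeq2) or without any 1 mouse, so the block changed no call. In J20 against non-J20, the 3 member calls became 5 with a batch term and 5 with no filter, 4 by DESeq2, 2 without doublets and 2 under the marker gate, and 1 to 4 without a mouse. The 0 calls among the pathway list became 1 with a batch term, 2 by DESeq2, 5 with no filter, 1 under the marker gate and 0 to 1 without a mouse. App kept its call in excitatory neurons and oligodendrocytes under all 6 alternatives. The 33 calls between classes and excitatory neurons ranged from 33 to 37. The 16 between fields were 13 adjusted over all genes, 0 with 6 non-J20 mice (which cannot pass, the smallest adjusted p being 0.0505) and 10 to 15 without a mouse. The 21 calls between neighbours in the order were 36 as UMIs per nucleus, 0 with 6 mice and 19 to 20 without a mouse. Depth limits Bace2 everywhere and all members in Cajal-Retzius cells.

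A change of scale from CPM to UMIs per nucleus turned the sign of these log2 differences, by construction, since the classes differ in UMIs per nucleus. Against excitatory neurons it gave -1.15, -1.73 and -0.72 in Cajal-Retzius cells for App, Aplp1 and Aplp2, and -0.76, -1.07 and -0.44 in astrocytes for Aplp2, Bace1 and Adam17. In oligodendrocytes it gave -0.58 for App, -0.072 for Aplp1, -0.92 for Aplp2, -1.13 for Bace1, -1.78 for Bace2, -1.45 for Adam10 and -1.08 for Adam17. In OPCs it gave -0.24, -0.80 and -0.96 for Aplp2, Bace1 and Adam10, and in microglia -0.68 for Adam10. For granule minus CA1 neurons it gave -0.29, -0.030 and -0.46 for Aplp1, Aplp2 and Bace1, for granule minus CA3 neurons -0.30, -0.88, -0.80 and -0.89 for Aplp1, Aplp2, Bace1 and Adam10, and for CA1 minus CA3 neurons -0.24, -0.0145, -0.34 and -0.32 for App, Aplp1, Bace1 and Adam17. Between neighbours in the order it gave -1.44 and -0.85 for App (Cajal-Retzius minus inhibitory, microglia minus astrocyte), -1.16 for Aplp1 (astrocyte minus inhibitory), -0.20, -0.47 and -1.18 for Aplp2 (oligodendrocyte minus Cajal-Retzius, Cajal-Retzius minus OPC, OPC minus inhibitory), -0.34 and -1.47 for Bace1 (oligodendrocyte minus OPC, astrocyte minus inhibitory), -0.49 and -1.36 for Adam10 (oligodendrocyte minus OPC, OPC minus inhibitory) and -0.65 and -0.86 for Adam17 (oligodendrocyte minus astrocyte, astrocyte minus inhibitory). The marker gate gave -0.34 for Aplp1 and 0.35 for Adam17 in Cajal-Retzius cells against excitatory neurons and -0.028 for App in Cajal-Retzius minus inhibitory cells, where it took in other clusters' nuclei. Otherwise the cause was not tested.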

Other observations

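App UMIs were also counted in small groups of nuclei outside the comparisons, named as non-neuronal cells. The 64 endothelial-like nuclei, cells that line blood vessels, had 809.6 to 1838 CPM in the non-J20 libraries (1109 ± 416, SD, n = 6) and 1697 and 1757 CPM in J20;WT and J20;GKO. The 125 mural or fibroblast-like nuclei, which wrap vessels, had 299.6 to 1037 CPM in the non-J20 libraries and 715 and 666 CPM in J20. The 505 nuclei of the choroid plexus or ependymal cluster, the epithelium that makes and lines the cerebrospinal fluid space, had 466 to 919 CPM and, in J20, 454 and 802 CPM. In all 3 groups J20 values overlapped the others.

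The Pvalb group of inhibitory neurons had 512 CPM of App in J20;WT and 624 CPM in J20;GKO against 421 to 532 CPM in the other mice, whereas the Vip group had 1098 and 1029.8 CPM against 656 to 903 CPM. Lamp5 neurons had 898 CPM in J20;WT and 609 CPM in J20;GKO against 464 to 566 CPM. Bace2 in CA3 neurons, at 20.8 and 14.9 CPM in J20 mice, ranged from 0.517 to 18.8 CPM in the others.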
